A study of Mus musculus with 8 samples.

Results

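The transition between epithelial and mesenchymal states was examined through 10 mouse genes that switch during reprogramming: 4 epithelial genes (Cdh1, Epcam, Cldn6 and Esrp1) and 6 mesenchymal genes (Cdh2, Vim, Snai1, Zeb1, Zeb2 and Twist1). They were taken by name from the 21887 protein-coding genes of the RefSeq annotation of GRCm38.p6 (mm10). Every accessible region that overlapped a gene span extended by 50 kb on both sides was assigned to that gene. This gave 84 of the 76872 deposited regions, 45 for the epithelial and 39 for the mesenchymal genes, and no region fell to more than 1 gene.

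Accessibility had been measured by ATAC-seq, in which the transposase Tn5 cuts and tags open DNA, in a clonal line of mouse induced pluripotent stem cells that carries the FUCCI2 cell cycle reporter. All 8 libraries came from cells grown on irradiated feeder cells with FBS, LIF and 2i, a MEK inhibitor together with a GSK3 inhibitor, and 50000 cells went into each. There were 4 groups of 2 libraries: mitotic cells shaken off after 6 hours in nocodazole (200 ng/ml), cells 1 hour and 3 hours after release from that arrest, and untreated asynchronous cells. The deposited list joins the whole series and gives the position of each region but no value per library. How the libraries were merged is not stated, so a region may have been open in some of the 8 libraries or in all. The list holds no difference between arrested, released and asynchronous cells, and the depth of each library is unknown. There are no replicates behind any count below.

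Fibroblasts that are reprogrammed to pluripotency pass through a mesenchymal-to-epithelial transition, in which cells gain junctions with their neighbours and lose migratory traits. The zinc finger proteins of the Snail and Zeb families and the helix-loop-helix protein Twist1 drive the opposite process and repress epithelial genes, Cdh1 above all. Snail and Zeb proteins bind the E-box CAGGTG, which reads CACCTG on the other strand. Pluripotent stem cells are themselves epithelial and hold E-cadherin at their contacts. As a check of the labelled cell type, a region lay within 1 kb of an end of 7 of 8 pluripotency markers (Pou5f1, Nanog, Sox2, Klf4, Zfp42, Dppa4 and Tdgf1, not Esrrb). This was so for 1 of 8 markers of the feeder fibroblasts, Col1a1, and for 62.0% of all protein-coding genes. The low count holds for these markers and not for mesenchymal genes at large. In a list of 30 of those, described below, 21 (70.0%) had a region at an end.

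Promoter sequences (250 bases before to 50 bases from the RefSeq start onwards, GRCm38.p6) were matched for 6 of the 10 genes, namely Epcam, Cldn6, Vim, Snai1, Zeb2 and Twist1. Cdh1, Esrp1, Cdh2 and Zeb1 were not matched. The sequences of 5 of these promoters are shown because they separate those that hold the Snail and Zeb E-box from those that do not. They are read 5′ to 3′ along the gene's strand, which is the plus strand for all 5, and capitals mark CAGGTG or CACCTG.
Epcam, chr17:87635729-87636028: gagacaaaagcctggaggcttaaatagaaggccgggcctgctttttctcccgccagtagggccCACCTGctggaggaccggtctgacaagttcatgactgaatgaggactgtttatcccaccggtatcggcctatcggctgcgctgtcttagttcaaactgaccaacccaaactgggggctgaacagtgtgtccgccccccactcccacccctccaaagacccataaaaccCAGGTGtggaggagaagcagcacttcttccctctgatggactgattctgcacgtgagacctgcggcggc
Cldn6, chr17:23679115-23679414: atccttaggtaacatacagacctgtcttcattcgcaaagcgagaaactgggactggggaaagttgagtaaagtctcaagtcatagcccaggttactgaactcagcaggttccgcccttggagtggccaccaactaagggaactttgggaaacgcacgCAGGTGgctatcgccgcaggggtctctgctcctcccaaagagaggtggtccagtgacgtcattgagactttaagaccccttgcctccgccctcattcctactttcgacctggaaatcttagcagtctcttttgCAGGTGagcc
Snai1, chr2:167537945-167538244: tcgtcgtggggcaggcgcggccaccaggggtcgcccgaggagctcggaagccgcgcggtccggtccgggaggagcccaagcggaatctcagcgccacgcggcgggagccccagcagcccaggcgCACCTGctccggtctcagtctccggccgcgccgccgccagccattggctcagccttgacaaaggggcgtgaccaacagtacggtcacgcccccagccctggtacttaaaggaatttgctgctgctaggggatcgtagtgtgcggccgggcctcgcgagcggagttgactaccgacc
Vim, chr2:13574061-13574360: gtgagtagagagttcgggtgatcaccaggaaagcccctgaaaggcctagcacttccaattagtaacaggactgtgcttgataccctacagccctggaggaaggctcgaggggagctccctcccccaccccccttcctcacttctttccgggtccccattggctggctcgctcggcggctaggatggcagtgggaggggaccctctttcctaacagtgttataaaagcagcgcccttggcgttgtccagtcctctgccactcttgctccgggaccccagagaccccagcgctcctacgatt
Twist1, chr12:33957421-33957720: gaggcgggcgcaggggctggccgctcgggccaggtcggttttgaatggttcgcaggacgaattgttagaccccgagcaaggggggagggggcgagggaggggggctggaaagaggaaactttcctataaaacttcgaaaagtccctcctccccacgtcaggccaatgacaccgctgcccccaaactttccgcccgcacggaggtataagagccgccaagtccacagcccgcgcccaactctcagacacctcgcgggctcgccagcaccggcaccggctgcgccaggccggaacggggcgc

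The Epcam promoter held 2 such E-boxes, the first starting 187 and the second 19 bases before the start of the gene. Cldn6 also held 2, with first bases 93 bases before and 40 bases after the start, and Snai1 held 1 that began 126 bases before it. The Vim and Twist1 promoters held none, nor did any of the 4 promoters listed for Zeb2. Over the 17492 protein-coding genes with a promoter in the table, 22.1% had CAGGTG or CACCTG in at least 1 promoter, and 19.7% of the 21263 single promoters did. Both epithelial genes with a promoter thus carried these letters, as did 1 of 4 mesenchymal genes. A match describes the letters only and does not show that a factor binds there.

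Accessible regions lay over promoters of 5 of the 6 genes, 1 of 2 epithelial and 4 of 4 mesenchymal, against 57.8% of all genes in the table. The whole 300 bases lay inside a region at Cldn6, Vim, Snai1 and Twist1, so the E-boxes of Cldn6 and Snai1 were in accessible DNA. Of all protein-coding promoters, 30.5% were covered over their whole length. Epcam had no region over its promoter, and its E-boxes lay outside accessible regions. The nearest region began 810 bases after its start. Zeb2 has 4 listed promoters on the minus strand, and a region reached only the one farthest inside the gene. It is shown here, chr2:45110228-45110527, with the bases inside that region in capitals.
Zeb2, promoter farthest inside the gene: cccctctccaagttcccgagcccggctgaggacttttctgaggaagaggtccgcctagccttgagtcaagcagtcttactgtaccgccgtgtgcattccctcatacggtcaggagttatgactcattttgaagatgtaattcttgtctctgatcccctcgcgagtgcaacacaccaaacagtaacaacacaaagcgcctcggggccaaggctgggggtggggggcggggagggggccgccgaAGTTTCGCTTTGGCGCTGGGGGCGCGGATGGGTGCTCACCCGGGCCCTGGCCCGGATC

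The region covered 58 bases of this window, 8 before and 50 from the start onwards. The other 3 Zeb2 starts were 2968, 2994 and 7157 bases from the nearest region. The outermost of them is the outer limit of the gene. The 4 fully covered promoters were not alike in base composition. The observed-to-expected ratio of CpG was 0.925 at Snai1 and 0.827 at Twist1 but 0.487 at Cldn6 and 0.421 at Vim. Its median was 0.781 over protein-coding promoters with a region and 0.215 over those without.

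A region lay within 1 kb of an outer limit of the gene for all 4 epithelial and 5 of 6 mesenchymal genes. The exception was Zeb2. The share of all protein-coding genes was 62.0%. Both classes were therefore accessible at a gene end almost throughout, with no separation of the epithelial from the mesenchymal genes. All 10 genes were touched by at least 1 region, against 71.3% of protein-coding genes, and 94.2% of those had a region within 50 kb. With a limit of 500 bases in place of 1 kb the epithelial count was 3, without Epcam.

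**Figure D1:**
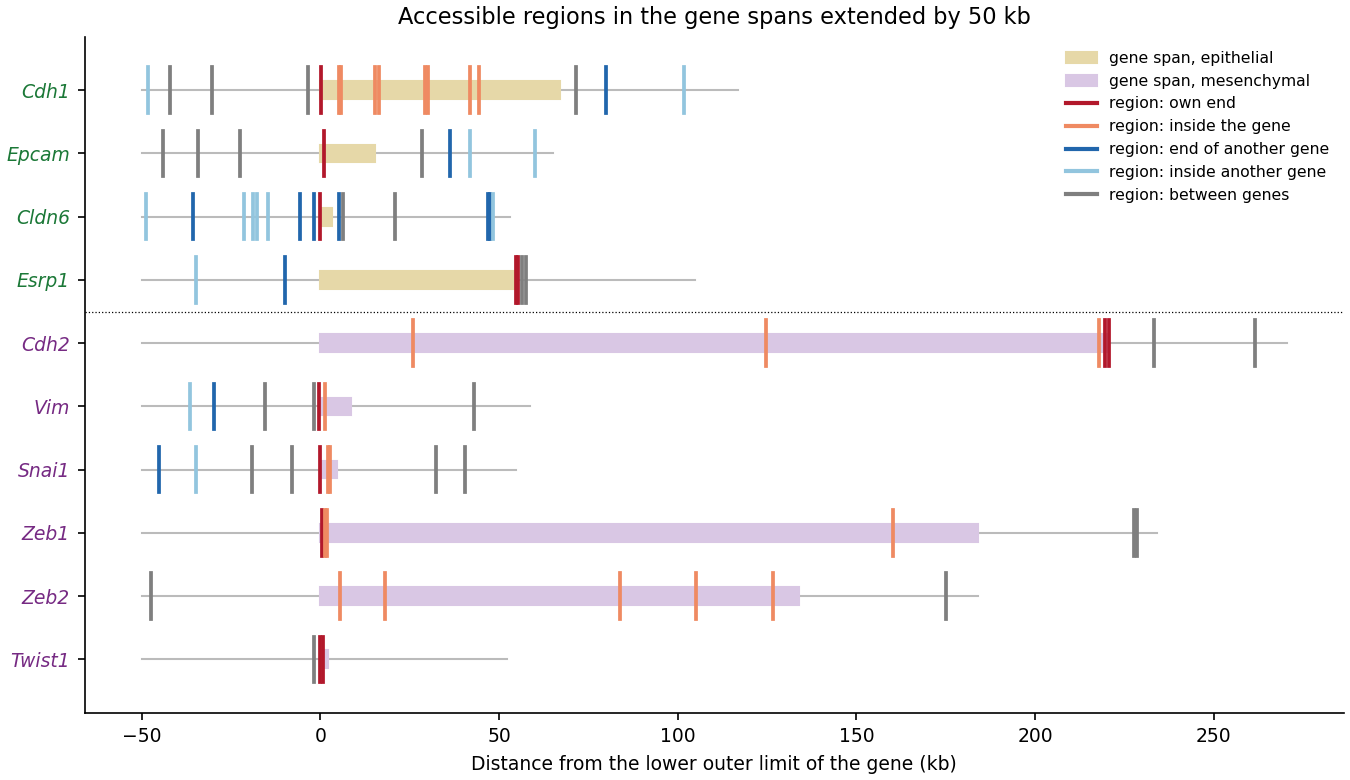
Regions in the windows of the 10 genes, by distance in kb from the lower outer limit of each gene; thick bars are the gene spans, thin grey lines the 50 kb on both sides, and each vertical line marks the midpoint of a region (line thickness is not its width), coloured by location. Cdh1 carries 9 regions in and at the gene, Cldn6 sits among regions of other genes, and Cdh2, Zeb1 and Zeb2 span long stretches without a region.

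Cdh1 (gene ID 12550), which encodes E-cadherin, the adhesion protein of epithelial junctions, had the most regions. The gene spans 66.9 kb at chr8:106603350-106670247. Of 16 regions in its window, 9 touched the gene. One of 716 bp, at chr8:106603171-106603886, spanned the lower limit. The other 8 lay inside the gene and 5.18 to 30.1 kb from the nearer limit, with widths from 73 to 527 bp. The widest of these, of 502 and 527 bp, began 16.1 and 29.1 kb from the lower limit. A region of 817 bp lay 4.19 kb beyond the upper limit, wider than 95.6% of regions away from gene ends, and one of 865 bp lay at an end of the neighbour Tango6. Among 2189 protein-coding genes of 57.1 to 109 kb, the median number of touching regions was 3 (quartiles 2 and 5), and 4.57% had 9 or more.

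Epcam (gene ID 17075) encodes an adhesion molecule of the epithelial cell surface and spans 15.1 kb at chr17:87635979-87651127. Its window held 8 regions, of which 1, of 302 bp at chr17:87636789-87637090, touched the gene. This was narrower than most regions at gene ends, at the 27.8th percentile of their widths. The other 7 lay 12.9 to 44.5 kb away. They included regions of 633 and 570 bp on the lower side.

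Cldn6 (gene ID 54419), which encodes the tight junction protein claudin 6, spans 3.1 kb at chr17:23679348-23682446 and lies among 8 other protein-coding genes in its window, among them Cldn9, another claudin. Only 1 of its 15 regions touched the gene, 356 bp at chr17:23679095-23679450. Of the other 14, 6 lay at ends of other genes and 6 inside them, which left 2 between genes. The genes with ends at these regions were Bicdl2, Thoc6, Hcfc1r1, Tnfrsf12a, Cldn9, 1520401A03Rik and Pkmyt1. A region of 766 bp lay within 1 kb of an end of both Thoc6 and Hcfc1r1, and the one at Cldn9 was 87 bp wide.

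Esrp1 (gene ID 207920) encodes a splicing regulator that maintains epithelial isoforms and spans 54.9 kb at chr4:11331933-11386783. Its regions were gathered at the upper limit. Of 6 in the window, 4 lay from chr4:11386469 to 11389610, with widths of 458, 91, 545 and 183 bp, and the first 2 were within 1 kb of the limit. Only the region of 458 bp touched the gene, which left a stretch of 54.5 kb, or 99.4% of the span, without a region. The remaining 2 regions lay at the neighbour Dpy19l4, with 891 bp at its end and 178 bp inside it. Among 2188 protein-coding genes of 35.9 to 57.1 kb, 37.6% were touched by 1 region or none. Cdh1 and Esrp1, the longest genes of the epithelial class, thus had the most and the fewest regions in it.

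Among the mesenchymal genes, Cdh2 (gene ID 12558) encodes N-cadherin, which replaces E-cadherin when cells become mesenchymal. It spans 220.4 kb at chr18:16588877-16809246, and 4 of its 7 regions touched the gene. The widest, of 1174 bp at chr18:16807835-16809008, lay at the upper limit and was wider than 94.7% of regions at gene ends. A second region of 305 bp followed 83 bases beyond that limit. Inside the gene a stretch of 98.4 kb held no region.

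Vim (gene ID 22352), which encodes the intermediate filament vimentin, spans 8.52 kb at chr2:13574311-13582826. A region of 1250 bp at chr2:13573375-13574624 covered its start. It was the widest of all 84 regions and wider than 96.4% of regions at gene ends. A narrower region of 164 bp lay inside the gene. Of the 7 regions in the window, one of 623 bp lay at an end of the neighbour Trdmt1.

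Snai1 (gene ID 20613), the gene of the repressor Snail, spans 4.62 kb at chr2:167538195-167542814. It was touched by 3 of the 9 regions in its window, with widths of 336 bp at the start and 234 and 367 bp inside the gene. The median for 2188 protein-coding genes of 4.17 to 7.38 kb was 1. The widest region of the window, of 1192 bp, lay inside the neighbour Rnf114, 34.3 kb away, and exceeded 99.2% of the regions away from gene ends. A region of 642 bp lay within 1 kb of an end of both Spata2 and Rnf114.

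Zeb1 (gene ID 21417) and Zeb2 (gene ID 24136) encode related repressors of Cdh1. Zeb1 spans 184.1 kb at chr18:5591327-5775468. Its lower limit lay in a region of 979 bp, and regions of 158 and 73 bp followed within the first 2 kb of the gene. Inside the gene 157.8 kb without a region then ended at a wide region of 921 bp, 23.5 kb from the upper limit. Zeb2 spans 133.9 kb at chr2:44983512-45117442 and had 5 regions inside the gene, of 98 to 406 bp, and none at either limit. The region of 406 bp is the one over the promoter farthest inside the gene. Both genes thus had regions inside the gene, and Zeb1 also had one at its outer limit.

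Twist1 (gene ID 22160) spans 2.16 kb at chr12:33957671-33959831 and had the fewest regions. All 3 lay within 2 kb of the gene: 134 bp below it, 635 bp over the start and 104 bp inside. No region lay in the rest of the window, which was 102.2 kb long.

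Compared as classes, the epithelial genes had a median of 11.5 regions in the window (6 to 16, n = 4 genes), the mesenchymal genes 7 (3 to 9, n = 6 genes) and all protein-coding genes 7. Windows of long genes are longer, so the count was also taken per 100 kb of window. On that scale the order was Cldn6 with 14.5, Cdh1 with 9.59, Snai1 with 8.60, Epcam with 6.95, Vim with 6.45, Esrp1 with 3.87, Zeb2 with 2.99, Twist1 with 2.94, Cdh2 with 2.18 and Zeb1 with 2.11. The class medians were 8.27 and 2.96, against 4.68 for all protein-coding genes (quartiles 2.44 and 7.60). Of the epithelial genes 3 of 4 were above that median, and of the mesenchymal genes 2 of 6, Snai1 and Vim. The classes overlapped, since Esrp1 was below both of these. Density was not matched for gene length. Protein-coding genes above 109 kb had a median of 9 regions in the window (quartiles 6 and 14), beside 7, 6 and 7 for Cdh2, Zeb1 and Zeb2. Against genes of like length, only Cdh1 (16, quartiles 5 and 11) and Cldn6 (15, quartiles 3 and 9) exceeded the upper quartile of the count. Without replicates, neighbours in this order cannot be told apart, and the difference between the classes was not tested.

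**Figure D2:**
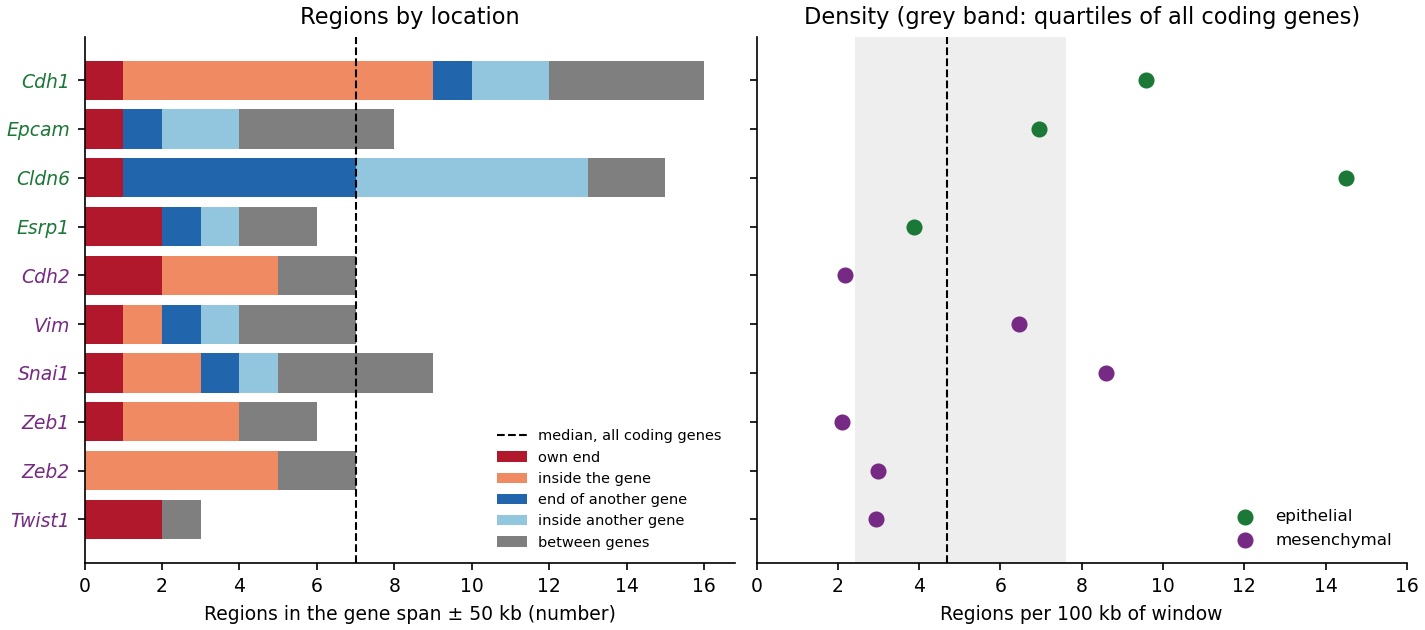
Left, number of regions in each gene span extended by 50 kb, divided by location, with the median of all protein-coding genes as a dashed line. Right, regions per 100 kb of window, with the quartiles (grey band) and median (dashed line) of all protein-coding genes; Cldn6 at 14.5 and Cdh1 at 9.59 are highest, and 4 mesenchymal genes lie between 2.11 and 2.99.

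The difference between the class medians of the count was 4.5 regions, and it was 1 without Cdh1 and 1 without Cldn6. Per 100 kb of window it was 5.30, and it was 3.98 when Cdh1 alone or Cldn6 alone was left out. The other epithelial genes, Epcam and Esrp1, had 8 and 6 regions, on either side of the mesenchymal median of 7. The higher epithelial count thus came from Cdh1 and Cldn6. When regions at the ends of other protein-coding genes were left out, the differences were 1.5 regions and 4.44 per 100 kb. The median counts were then 8 and 6.5, beside 4 for all protein-coding genes. Surrounding genes also differed: 20 of 45 epithelial regions (44.4%) lay at or in another protein-coding gene, against 4 of 39 mesenchymal ones (10.3%). Of the 20, 6 at ends of other genes and 6 inside them came from Cldn6 alone. No share over all protein-coding genes was taken for these counts. The median number of other coding genes in the window was 1.5 and 0.5, both below the 3 of all protein-coding genes (quartiles 1 and 4). Over all protein-coding genes, the median rose from 4 regions in windows with no other coding gene to 11 in those with 8. Cdh1 had 16 regions and 2 other coding genes in its window. Genes with 2 had a median of 6 regions (quartiles 3 and 9), and genes of 57.1 to 109 kb had 8 (quartiles 5 and 11). The part of neighbouring genes and of gene length in the class difference was not tested. Of the 84 regions, 16 lay within 1 kb of an end of a noncoding gene or pseudogene, beside 8.86% of all regions.

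Within the gene spans the order of the classes turned round. A median of 1 region touched the epithelial genes and 3.5 the mesenchymal genes. The means were closer, 3.0 and 3.33, as were the medians per 10 kb of gene, 1.0 and 1.36. Of all regions in the windows, 13 of 45 (28.9%) against 21 of 39 (53.8%) lay in or at the gene itself. Cdh1 held 9 of the 13. The gene filled 66.9 of 166.9 kb of the window at Cdh1 and 220.4 of 320.4 kb at Cdh2. It filled 184.1 of 284.1 kb at Zeb1 and 133.9 of 233.9 kb at Zeb2, but 8.52 of 108.5 kb at Vim. No share over all protein-coding genes was taken for these counts. All 6 mesenchymal genes were above the median of 1 for all protein-coding genes, and of the epithelial genes only Cdh1 was. This rested on an overlap of 1 bp: where the midpoint of a region had to lie inside the gene, Vim and Twist1 had 1 region each and 4 of 6 were above the median. Length runs with this count, from a median of 0 in genes of 1.54 to 4.17 kb to 5 in those above 109 kb. Set against genes of like length, Twist1, Vim and Snai1 were above the upper quartile of their length class, as was Cdh1. By the midpoint rule only Snai1, with 2, and Cdh1, with 9, were above it, and with regions of at least 150 bp Twist1 was not. Zeb1, Cdh2 and Zeb2 lay within the quartiles of 3 and 9.

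**Figure D3:**
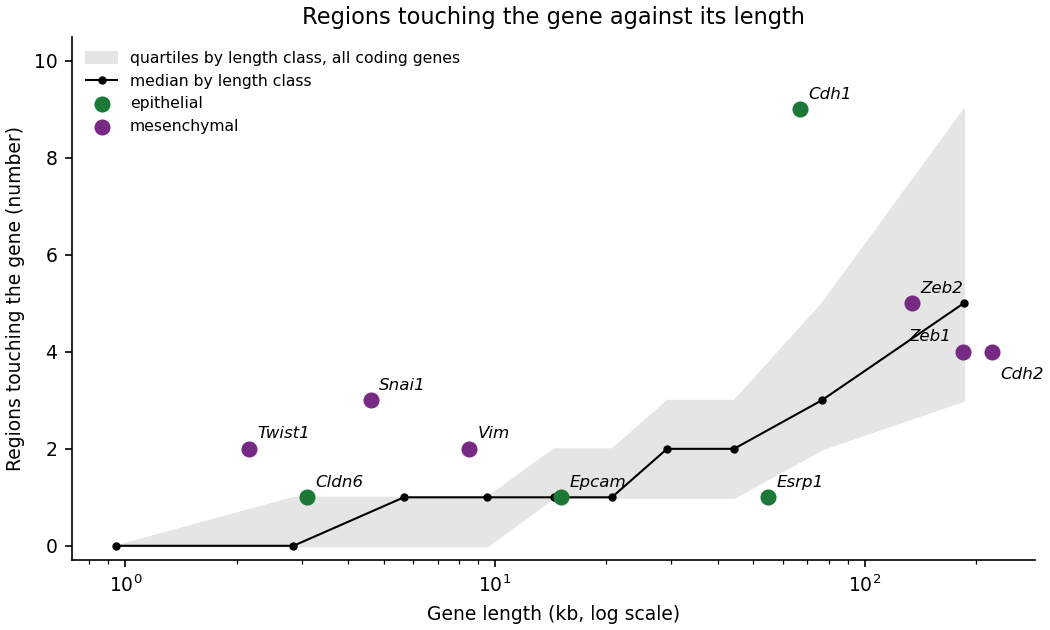
Number of regions touching each gene by at least 1 bp against its length in kb (log axis), with the median (line) and quartiles (band) of all protein-coding genes in 10 length classes plotted at the median length of each class. Cdh1 with 9 regions stands above the band, as do Twist1, Vim and Snai1 with 2, 2 and 3.

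Regions at the mesenchymal gene ends were wider in part. Taking the widest end region of each gene, the epithelial values were 716, 458, 356 and 302 bp for Cdh1, Esrp1, Cldn6 and Epcam. Those of the mesenchymal genes were 1250, 1174, 979, 635 and 336 bp for Vim, Cdh2, Zeb1, Twist1 and Snai1. The medians were 407 and 979 bp, against 660.0 bp for the 13567 protein-coding genes with a region at an end. Over all end regions of the 10 genes the medians were 356 bp (5 epithelial regions) and 635 bp (7 mesenchymal regions), against 525 bp for all regions at ends of protein-coding genes. Cdh1 and Snai1 show that the ranges overlapped. Of all regions in the windows, the median width was 257 bp for epithelial and 336 bp for mesenchymal genes, and 281 bp in the whole list. Regions covered 3.16% of the epithelial windows and 0.99% of the mesenchymal windows (medians), against 1.82% for all protein-coding genes. These classes overlapped too: Snai1 with 3.63% was above Epcam (3.17%) and Cdh1 (3.15%), and Vim with 2.91% was above Esrp1 (1.52%). The covered share was not matched for gene length. The width of a region says how far the called interval reached and is no measure of how open it was.

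**Figure D4:**
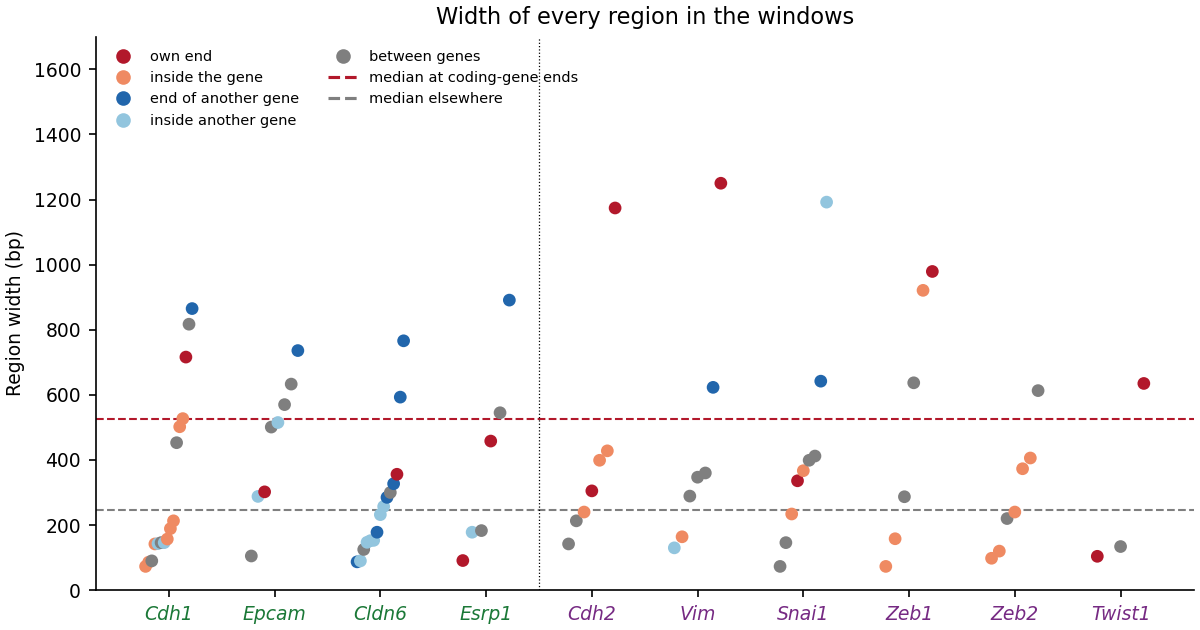
Width in bp of each of the 84 regions, by gene and coloured by location; dashed lines are the medians of all regions at ends of protein-coding genes (525 bp) and of all others (246 bp). End regions (red) reach 1250, 1174 and 979 bp at Vim, Cdh2 and Zeb1 and stay at or below 716 bp at the epithelial genes.

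Further genes of each state were described from lists of 30, all of which were matched. The epithelial list held junction, keratin and epithelial regulator genes, and 25 of 30 had a region at an end. The mesenchymal list held matrix, receptor and regulator genes, and 21 of 30 had one, beside the 62.0% of all protein-coding genes. It shares Col1a1, Col1a2, Col3a1, Thy1 and Pdgfra with the feeder markers above, and of these only Col1a1 had one. Per 100 kb of window the medians were 7.85 and 4.52, beside 4.68 for all, and 24 and 15 of the genes were above the latter. The lists differed in surroundings as well, with medians of 3.5 and 1.5 other coding genes in the window, beside 3 for all. The part of these was not tested. Without regions at the ends of other coding genes, the median counts were 7 and 5, beside 4 for all. The claudin genes Cldn4 and Cldn3 had the most regions of the epithelial list, 19 and 18. Their windows share regions, as they are neighbours on chromosome 5. Perp, a desmosome gene, had 1, and Krt19, a keratin gene, had 3. In the mesenchymal list Sparc, a matrix protein gene, had 15, and the integrin gene Itga5 and the growth factor gene Tgfb1 had 14 each. The collagen gene Col1a2 and the homeobox gene Prrx1 had 2 each and none at an end. Twist2, a paralogue of Twist1, and the receptor gene Tgfbr1 also had 2, with a region at an end of each.

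**Figure D5:**
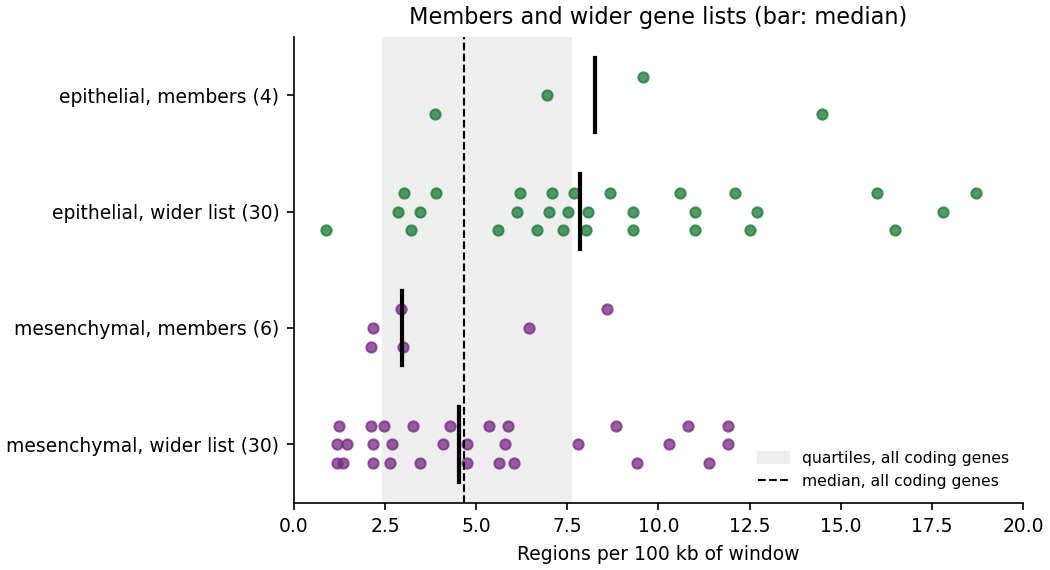
Regions per 100 kb of window for the 10 genes and for the 2 wider lists of 30 genes; each point is a gene, bars are medians, and the band and dashed line are the quartiles and median of all protein-coding genes. The medians are 8.27 and 7.85 for epithelial and 2.96 and 4.52 for mesenchymal genes, and the points overlap.

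The promoters of the wider lists differed in their letters and in their accessibility. Of 20 epithelial genes with a promoter in the table, 15 (75%) held CAGGTG or CACCTG, and of 16 mesenchymal genes 1, Sparc (6.25%), beside 22.1% of all. A region overlapped a promoter of 16 of 20 (80.0%) and of 5 of 16 (31.2%), beside 57.8% of all. Both were found at the same promoter in 12 epithelial genes, namely the junction genes Cldn3, Cldn4, Cldn7, Ocln, Dsp, F11r and Lsr, the polarity gene Crb3, the keratin gene Krt18, the protease inhibitor gene Spint2 and the transcription factor genes Grhl3 and Elf3. No mesenchymal gene of the list had both, beside 11.2% of all protein-coding genes in the table. Neither difference was tested.

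MicroRNAs of the miR-200 family are the counterparts of Zeb1 and Zeb2: they repress both messages and are repressed by both proteins. The 5 mature sequences (RefSeq, GRCm38.p6) are shown because their seeds, bases 2 to 8 in capitals, fall into 2 groups, the first 3 below and the last 2.
miR-200b-3p: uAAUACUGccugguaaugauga
miR-200c-3p: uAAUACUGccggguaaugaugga
miR-429-3p: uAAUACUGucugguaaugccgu
miR-200a-3p: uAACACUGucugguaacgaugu
miR-141-3p: uAACACUGucugguaaagaugg

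The family is encoded in 2 clusters. The window of Mir200a, Mir200b and Mir429 on chromosome 4 held 4 regions, of which the nearest, 821 bp at chr4:156059161-156059981, lay 3.41 kb from the cluster. That of Mir200c and Mir141 on chromosome 6 held 12. The nearest of these, 99 bp, was 1.09 kb away, and 5 of the 12 lay at ends of the coding genes Emg1, Phb2, Ptpn6, Grcc10, Atn1 and Eno2. No region touched any of the 5 hairpins. These are short, and regions covered a median of only 1.82% of the windows of protein-coding genes. No share over intervals of like size was taken.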

How the data were processed

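ATAC-seq had been run on 8 libraries in 4 groups of 2. The authors deposited 1 list of regions for the whole series, with 3 columns (chromosome, start and end in base pairs, counted from 0) and no count, score or value per library. Per the submitters' processing notes, the build was GRCm38 (mm10) and the tools were MACS2 (version 2.1.1), bedtools, SAMtools, Picard, Bowtie2 and cutadapt. Their parameters, the Tn5 shift, blacklist filtering and the merging of libraries were not stated in the sources used here. The labels name total RNA as the molecule, against their own titles and Tn5 protocol, which were followed. If regions of single libraries were kept, a region open in 1 library would count like a region open in all.

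Regions were set against the outer limits of RefSeq genes (GRCm38.p6) with an overlap of at least 1 bp, using Python 3.11.15, pandas 2.3.3 and NumPy 2.4.6. Coordinates are given from 1. The gene limits carry no strand, and strand came from the promoter table. CAGGTG and CACCTG were searched in promoters on both strands. Percentiles are over protein-coding genes or regions. The overlap code was tested on simulated data, with 0 disagreements with a direct count. The members and lists were chosen with earlier results of these data known, so all comparisons are descriptions and no test was run. Named beyond the members were, per wider list, the 2 genes with the most and 2 with the fewest regions (ties by symbol), and genes with an end at a member's region, of which 1 is not reported here. Tied genes, microRNA genes and genes with both a region and an E-box at a promoter were named after their values were seen.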

Additional observations from a re-analysis of the deposited data

How the results depend on the processing

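No paired analysis was possible because the list holds no value per library; replicates could not be left out for the same reason. Of 153 alternatives run for class values, 144 moved by less than the SD over genes (for counts of genes, by less than 1.5 times) and 9 by more, and none changed the sign of a class difference. The SD over so few genes is wide, 3.43 regions for the class difference of the count. A fall of that difference from 4.5 to 1.5, without regions at ends of other protein-coding genes, therefore counted among the 144. With windows of 100 kb the median number of regions was 18 for epithelial and 9.5 for mesenchymal genes, a difference of 8.5, beside 11 for all protein-coding genes. With windows of 25 kb the mesenchymal median was 4.5. The difference of 4.5 was 1 without Cdh1, 1 without Cldn6, 8 without Epcam and 8 without Esrp1. The epithelial median of the covered share was 2.14% without regions at ends of other protein-coding genes, where Cldn6 kept 9 of 15 regions. With regions of at least 150 bp, Cdh1 kept 9 of 16 and Twist1 1 of 3. The depth of the libraries is unknown, so an absent region cannot be told apart from one too weak to be called.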

Other observations

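Noncoding genes also ended at regions of the 10 genes. Of the 16 regions within 1 kb of an end of a noncoding gene or pseudogene, beside 8.86% of all regions in the list, 14 lay at long noncoding RNA genes, at 7 of the 10 genes. These genes were chosen after their values were seen. Gm35631 (chr4:11387132-11389412) lies above the upper limit of Esrp1, and all 4 regions gathered there lay at its ends. Below Epcam, one region (633 bp) lay at the lower and one (570 bp) at the upper end of Gm46609. Below Vim, the ends of Gm9875 lay likewise at regions 347 and 289 bp wide. Gm10125 overlaps the lower limit of Zeb1, and 3 Zeb1 regions lay at its end. The region over the inner Zeb2 promoter lay within 1 kb of Zeb2os. The annotation used here gives no strand for these genes.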
